A study of Mus musculus with 12 samples.

Results

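A list of 41 mitotic genes was followed through 12 RNA-seq libraries of sorted microglia, the resident macrophages of the brain. The genes were taken by symbol from the deposited table of read counts, following a rule on function that used no measured value, although earlier results of these data were known when the list was chosen. All 41 of the 41 symbols were present among 24328 genes. They cover the cyclins and kinases that start mitosis, the ubiquitin step that ends it, the kinetochore, the spindle and its motors, the cytokinesis machinery, and condensin with other chromosome proteins. Every mouse was wild-type on the Balb/c background, and each group held 4 mice. Allogeneic mice were lethally irradiated and given 5000000 bone marrow cells and 300000 T cells from an allogeneic donor. The syngeneic group had the same irradiation and the same cell doses from a syngeneic donor, while control mice were untransplanted. Transplanted mice were killed by perfusion on day 14, when graft-versus-host disease (GvHD, in which donor T cells attack host tissue) is at its height per the labels. The labels name neither the sort markers nor the donor strain, nor whether the sorted cells were of host or donor origin, and irradiation, grafting and time after them cannot be told apart in a comparison with control.

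Mitosis is driven by the kinase CDK1 bound to cyclin B, which condenses chromosomes, breaks down the nuclear envelope and builds the spindle. Once every kinetochore is attached, the anaphase-promoting complex destroys cyclin B and the sister chromatids part. Most of these genes are transcribed in a wave late in the cell cycle: in resting cells the DREAM complex holds them silent through a promoter element called CHR (cell cycle genes homology region), and in cycling cells B-MYB, FOXM1 and the CCAAT-binding factor NF-Y act on the same promoters. Adult microglia divide rarely, and mitotic transcripts are therefore a usual marker of division in this cell type.

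Promoters are printed because 2 elements of this wave can be read in them directly. Windows of 300 bases, from 250 before to 50 after the RefSeq transcript start (build GRCm38.p6), were at hand for 35 of the 41 genes. Those of Ccna2, Smc4, Kif20a, Foxm1, Tpx2 and Aurkb were not used here. Searched on both strands were the CHR letters (TTTGAA or TTTAAA or TTCGAA or CTTGAA), the 5 letters of the CCAAT box, and the E2F letters (TTTCCCGC or TTTCGCGC or TTTGCCGC or TTTGGCGC). No match of one kind overlapped a match of another. The 4 windows below are examples with 5 or more matches each, and capitals mark each match. Top2a is at chr11:99024140-99024439 and Cdk1 at chr10:69352863-69353162, both on the minus strand, Hmmr is at chr11:40733388-40733687 on the minus strand, and Cenpa is at chr5:30666636-30666935 on the plus strand. Each reads 5′ to 3′ along its gene.
Top2a: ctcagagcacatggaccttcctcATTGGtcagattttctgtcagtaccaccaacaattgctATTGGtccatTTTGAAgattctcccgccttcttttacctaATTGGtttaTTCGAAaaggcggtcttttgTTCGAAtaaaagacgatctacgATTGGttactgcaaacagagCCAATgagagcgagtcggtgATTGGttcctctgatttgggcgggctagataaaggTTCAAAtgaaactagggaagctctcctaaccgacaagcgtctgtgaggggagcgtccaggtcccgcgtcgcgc
Cdk1: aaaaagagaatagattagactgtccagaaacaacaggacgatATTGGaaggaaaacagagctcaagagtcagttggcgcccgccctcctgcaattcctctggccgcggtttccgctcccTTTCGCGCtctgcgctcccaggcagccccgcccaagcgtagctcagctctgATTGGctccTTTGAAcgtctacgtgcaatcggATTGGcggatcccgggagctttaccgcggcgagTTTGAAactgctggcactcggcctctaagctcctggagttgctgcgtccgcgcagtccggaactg
Hmmr: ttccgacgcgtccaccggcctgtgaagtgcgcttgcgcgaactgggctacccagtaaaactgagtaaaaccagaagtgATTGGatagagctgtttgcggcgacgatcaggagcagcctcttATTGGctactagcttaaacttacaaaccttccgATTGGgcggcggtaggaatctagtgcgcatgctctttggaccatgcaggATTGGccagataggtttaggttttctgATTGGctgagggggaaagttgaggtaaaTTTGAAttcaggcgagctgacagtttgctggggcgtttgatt
Cenpa: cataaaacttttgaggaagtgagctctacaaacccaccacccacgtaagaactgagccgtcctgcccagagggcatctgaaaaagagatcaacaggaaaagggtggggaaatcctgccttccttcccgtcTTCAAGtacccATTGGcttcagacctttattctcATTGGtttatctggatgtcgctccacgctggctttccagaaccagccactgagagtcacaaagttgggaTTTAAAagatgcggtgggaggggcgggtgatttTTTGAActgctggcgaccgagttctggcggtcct
The Top2a window held 4 CHR and 6 CCAAT matches, that of Cdk1 2 CHR, 3 CCAAT and 1 E2F match, that of Hmmr 1 CHR and 5 CCAAT matches, and that of Cenpa 3 CHR and 2 CCAAT matches. A CHR match was present in 33 of 35 mitotic genes with a window (94.29%), against 40.83% of 27025 genes with one. At least 2 CCAAT boxes in a window were present in 18 of 35 mitotic genes (51.43%), against 13.27% of all genes with a window. Both elements together, a CHR match and at least 2 CCAAT boxes, were found in 18 of 35 (51.43%) against 4.87%, and an E2F match in 4 of 35 (11.43%) against 2.605%. Of the 9695 tested genes with a window, 32.12% held a CHR match, 16.54% at least 2 CCAAT boxes, 4.765% both and 4.703% an E2F match. The median position of CCAAT matches was -78 and that of CHR matches -19 relative to the start site. Nuf2 and Nusap1 held no match of any kind. A match describes the letters and does not show binding.

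Levels are given as CPM, read counts relative to a library size that TMM factors correct for differences in composition. Library totals were 35559202 to 42641198 counts for allogeneic mice, 36422729 to 46126118 for syngeneic mice and 32652208 to 45439607 for control mice. Of the 24328 genes, 12695 passed the filter on low counts, among them all 41 mitotic genes. The label was checked against 5 microglia markers (P2ry12, Tmem119, Cx3cr1, Csf1r and Sall1), which summed to 16592 to 17624 CPM in allogeneic, 25998 to 28109 CPM in syngeneic and 33350.4 to 37683 CPM in control libraries. In allogeneic libraries all 5 were called lower, both against control and against syngeneic libraries. In syngeneic against control libraries 4 were called lower and 1 higher. The higher one was P2ry12, with a mean of 17287 CPM in syngeneic and 12080 CPM in control libraries. Rose, fell and called refer to edgeR's quasi-likelihood test at a Benjamini-Hochberg adjusted p under 0.05 over all 12695 genes, and fold changes are log2 ± SE. In these bulk libraries, more cells in division and more mitotic RNA per dividing cell cannot be told apart.

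Both transplanted groups held several times more mitotic RNA than control microglia. The 41 genes together summed to 1149, 947, 1100 and 943 CPM in allogeneic libraries, 1179, 1223, 1092 and 1327 CPM in syngeneic libraries and 133, 154, 159.7 and 137 CPM in control libraries. No transplanted library came near a control library. The allogeneic mean of 1035 ± 106 CPM was 7.09 times the control mean of 146 ± 13.1 CPM, and the syngeneic mean of 1205 ± 97.9 CPM was 8.26 times it (SD, n = 4 each). Both folds share the same 4 control libraries. All 8 role groups had non-overlapping sums against control. Their ratios to control lay between 5.59 (spindle motors) and 11.2 (Cdc20 and Ube2c) in allogeneic libraries, and between 6.18 (spindle motors) and 11.7 (Cdc20 and Ube2c) in syngeneic libraries.

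**Figure D1:**
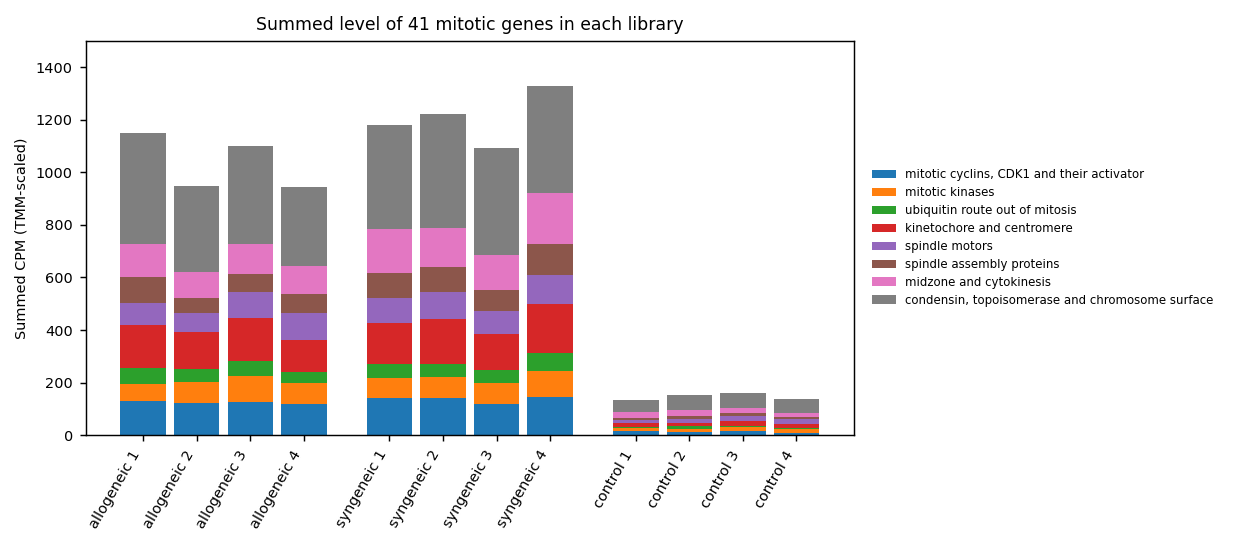
Summed TMM-scaled CPM of the 41 mitotic genes in each of 12 libraries, with colours for 8 roles. Allogeneic bars reach 943 to 1149 CPM, syngeneic bars 1092 to 1327 CPM and control bars 133 to 159.7 CPM, and every role is present in each group.

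Gene by gene, 39 of the 41 were called higher and 0 lower in allogeneic against control libraries, where 28.2% of all tested genes were called higher and 29.1% lower. In syngeneic against control libraries 41 were called higher and 0 lower, where 26.4% of all tested genes were called higher and 25.6% lower. The median log2 fold change of the 41 was 2.96 (7.79-fold) in allogeneic and 3.15 (8.85-fold) in syngeneic libraries against control, beside -0.07 in allogeneic and -0.03 in syngeneic libraries over all tested genes. All 4 transplanted libraries lay above all 4 control libraries in 36 genes in the allogeneic comparison (26.2% of all tested genes) and in 40 genes in the syngeneic comparison (24.6%). Over 8-fold differences were reached by 18 of the 41 in allogeneic libraries (43.9%, against 4.81% of all tested genes) and by 23 in syngeneic libraries (56.1%, against 3.65%).

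**Figure D2:**
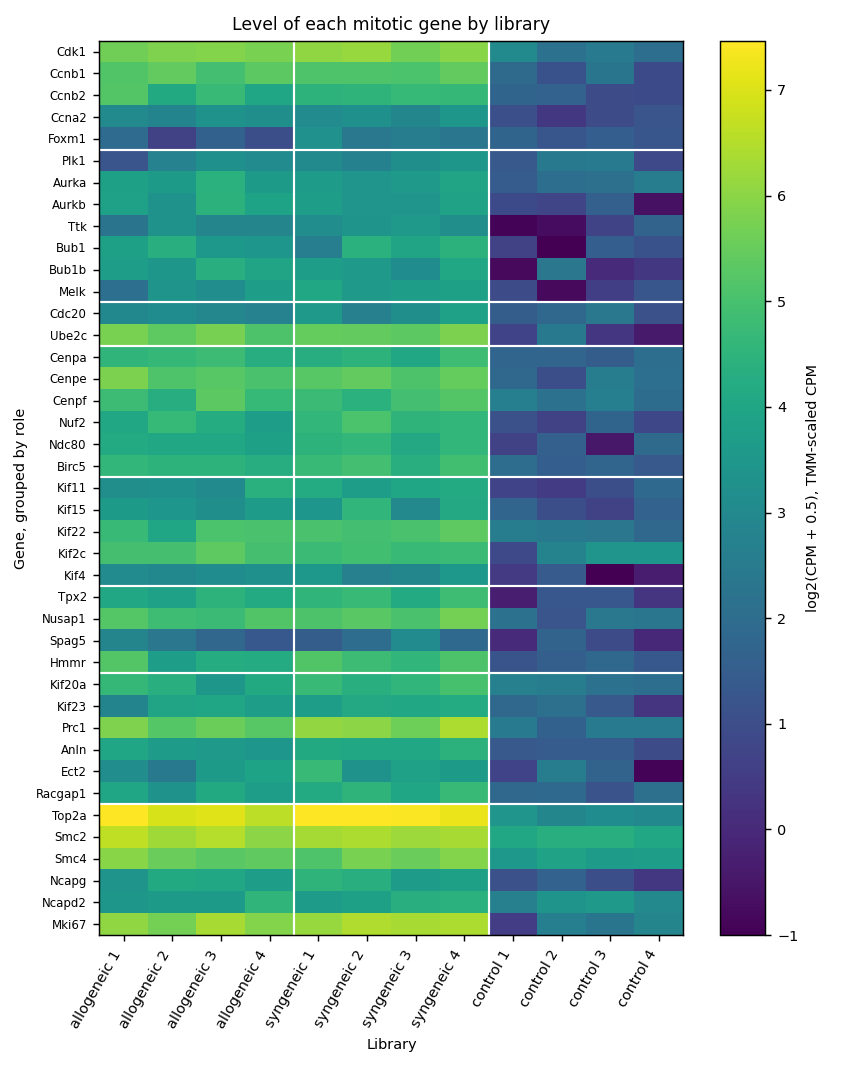
Level of each gene (rows, by role) in each library (columns, allogeneic, syngeneic and control from left to right) as log2(CPM + 0.5). The control block is darker than both transplanted blocks for most genes, and Top2a is the brightest row. Rows with a less clear difference include Foxm1 (1.07 to 3.40 CPM in allogeneic libraries), Plk1, Ncapd2 and Spag5.

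The genes that trigger mitosis rose strongly, apart from Foxm1. Cdk1, the kinase at the centre of mitotic entry, had 48.7, 56.8, 58.9 and 53.6 CPM in allogeneic libraries, 66.6, 70.3, 50.2 and 61.6 CPM in syngeneic libraries and 7.53, 3.93, 4.94 and 3.62 CPM in control libraries. It rose by 3.44 ± 0.20 in allogeneic libraries (edgeR adjusted p = 5.84e-11) and by 3.63 ± 0.20 in syngeneic libraries (9.33e-11) against control. The lowest transplanted library was thus several times above the highest control library. Ccnb1, the main cyclin B, had 35.1, 42.5, 30.3 and 40.1 CPM in allogeneic libraries, 34.8, 34.7, 33.1 and 43.04 CPM in syngeneic libraries and 3.27, 1.67, 4.41 and 1.37 CPM in control libraries. Its rise was 3.77 ± 0.29 in allogeneic and 3.75 ± 0.29 in syngeneic libraries (edgeR adjusted p = 2.58e-09 in allogeneic and 4.90e-09 in syngeneic libraries). The second cyclin B gene, Ccnb2, stood at 36.5, 17.01, 26.3 and 15.7 CPM in allogeneic libraries, 21.7, 22.2, 24.9 and 24.5 CPM in syngeneic libraries and 2.83, 2.68, 1.45 and 1.37 CPM in control libraries. It was more variable among allogeneic than among syngeneic mice, and rose by 3.52 ± 0.31 in the allogeneic group and 3.49 ± 0.31 in the syngeneic group (edgeR adjusted p = 1.46e-08 in allogeneic and 2.63e-08 in syngeneic libraries). Ccna2, cyclin A, which pairs with CDK2 and then CDK1 before mitosis, rose by 2.53 ± 0.33 in allogeneic and 2.61 ± 0.33 in syngeneic libraries.

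Foxm1, a forkhead transcription factor that activates late cell cycle genes, was at low levels throughout and was the single gene of the 41 called between the transplanted groups. It had 3.40, 1.07, 2.60 and 1.53 CPM in allogeneic libraries, 9.27, 4.74, 5.31 and 4.55 CPM in syngeneic libraries and 2.80, 1.88, 2.41 and 1.91 CPM in control libraries. Allogeneic values overlapped control values, and all 4 syngeneic values lay above both. The difference was -0.07 ± 0.45 in allogeneic against control libraries (edgeR adjusted p = 0.908, not called), 1.40 ± 0.45 in syngeneic against control libraries (0.0140, called higher) and -1.47 ± 0.45 in allogeneic against syngeneic libraries (0.0310, called lower). The syngeneic rise was lost without syngeneic 1 (adjusted p = 0.0768), the highest library. The allogeneic fall was lost without syngeneic 1 (0.141), syngeneic 3 (0.0502), allogeneic 2 (0.0790) or allogeneic 4 (0.0734), and without the filter on low counts (0.0522).

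Among the 7 mitotic kinase genes, 6 rose in allogeneic and 7 in syngeneic libraries against control. The Aurora kinases rose by unequal amounts. Aurkb, the kinase of the chromosomal passenger complex, rose by 3.46 ± 0.49 in allogeneic and 3.15 ± 0.49 in syngeneic libraries, and Aurka, which matures centrosomes, by 1.94 ± 0.28 in allogeneic and 1.69 ± 0.28 in syngeneic libraries. The spindle checkpoint kinase Ttk rose by 2.74 ± 0.78 in allogeneic and 3.23 ± 0.79 in syngeneic libraries, its checkpoint partners Bub1 by 3.39 ± 0.74 in allogeneic and 3.58 ± 0.74 in syngeneic libraries and Bub1b by 3.29 ± 0.77 in allogeneic and 3.05 ± 0.76 in syngeneic libraries, and the kinase Melk by 2.99 ± 0.54 in allogeneic and 3.62 ± 0.56 in syngeneic libraries. These SEs were wide. Bub1 had 0 counts in control 2, and Kif4 had 0 counts in control 3 (3 counts would be 0.0797 and 0.0588 CPM). Bub1b had 4.59 CPM in control 2, and its log2 fold changes without that library were 4.93 in allogeneic and 4.71 in syngeneic libraries. Those of Ttk were 3.92 in allogeneic and 4.42 in syngeneic libraries without control 4.

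Plk1, the polo-like kinase that acts from mitotic entry to cytokinesis, had 1.86, 6.25, 9.09 and 7.98 CPM in allogeneic libraries, 7.78, 6.14, 8.76 and 10.6 CPM in syngeneic libraries and 2.06, 4.86, 5.02 and 1.32 CPM in control libraries. Its values overlapped between allogeneic and control libraries, at 0.92 ± 0.47 (edgeR adjusted p = 0.0997, not called), with allogeneic 1 the lowest of its group. Without allogeneic 1 it was called higher (1.23, adjusted p = 0.0193). It rose by 1.33 ± 0.47 in syngeneic against control libraries (0.0240), a call lost without control 1 (0.0699), control 4 (0.0704) or syngeneic 4 (0.0655).

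The pair that feeds the exit from mitosis differed in size. Ube2c, the ubiquitin-conjugating enzyme of the anaphase-promoting complex, had the largest fold of the 41 in both comparisons with control. It had 53.96, 40.7, 52.9 and 33.6 CPM in allogeneic libraries, 43.7, 42.5, 39.7 and 54.7 CPM in syngeneic libraries and 1.14, 4.83, 0.764 and 0.259 CPM in control libraries. The control libraries spread widely between 0.259 and 4.83 CPM, all far below the transplanted ones. Its rise was 4.72 ± 0.64 in allogeneic and 4.71 ± 0.64 in syngeneic libraries (edgeR adjusted p = 5.38e-05 in allogeneic and 6.58e-05 in syngeneic libraries), and without control 2, its highest control library, it was 5.94 in allogeneic and 5.96 in syngeneic libraries. Cdc20, which hands substrates to the same complex, rose by 1.28 ± 0.35 in allogeneic and 1.76 ± 0.35 in syngeneic libraries.

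All 6 kinetochore and centromere genes rose in both comparisons with control. Cenpa, the histone H3 variant that marks centromeres, had 23.01, 24.6, 27.3 and 18.7 CPM in allogeneic libraries, 18.9, 21.6, 16.2 and 28.3 CPM in syngeneic libraries and 2.92, 2.89, 2.35 and 3.70 CPM in control libraries. Transplanted and control values were far apart, and the rise was 2.98 ± 0.23 in allogeneic and 2.84 ± 0.23 in syngeneic libraries (edgeR adjusted p = 2.66e-09 in allogeneic and 8.33e-09 in syngeneic libraries). Cenpe, a kinesin that carries chromosomes to the metaphase plate, had 54.8, 34.5, 37.6 and 32.5 CPM in allogeneic libraries, 37.96, 42.5, 33.7 and 44.1 CPM in syngeneic libraries and 3.07, 1.54, 5.51 and 3.78 CPM in control libraries. It rose by 3.51 ± 0.29 in allogeneic and 3.50 ± 0.29 in syngeneic libraries. Nuf2, a subunit of the NDC80 complex that grips microtubules, stood at 16.2, 24.8, 18.6 and 13.04 CPM in allogeneic libraries, 23.7, 33.3, 22.01 and 23.8 CPM in syngeneic libraries and 1.64, 1.06, 2.80 and 1.27 CPM in control libraries. The rise of Nuf2 was 3.41 ± 0.30 in allogeneic and 3.91 ± 0.31 in syngeneic libraries, and that of its partner Ndc80 was 3.17 ± 0.48 in allogeneic and 3.61 ± 0.49 in syngeneic libraries. Birc5, survivin of the chromosomal passenger complex, had 23.6, 21.6, 21.9 and 18.7 CPM in allogeneic libraries, 25.5, 30.4, 19.9 and 29.3 CPM in syngeneic libraries and 3.62, 2.42, 2.88 and 2.07 CPM in control libraries. No control value came near a transplanted one, and Birc5 rose by 2.96 ± 0.22 in allogeneic and 3.26 ± 0.22 in syngeneic libraries. Cenpf, a large outer kinetochore protein, rose by 2.55 ± 0.25 in allogeneic and 2.58 ± 0.25 in syngeneic libraries.

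The 5 spindle motors all rose against control in both groups, by log2 2.23 to 3.28 in allogeneic and 1.94 to 3.39 in syngeneic libraries. Kif22, a chromokinesin that pushes chromosome arms outward, had 26.3, 15.5, 33.3 and 32.7 CPM in allogeneic libraries, 32.1, 29.9, 32.3 and 41.1 CPM in syngeneic libraries and 5.50, 4.81, 4.62 and 3.13 CPM in control libraries. Allogeneic 2 was the lowest transplanted library and still lay above every control, with a rise of 2.58 ± 0.24 in allogeneic and 2.91 ± 0.24 in syngeneic libraries (edgeR adjusted p = 3.91e-08 in allogeneic and 1.42e-08 in syngeneic libraries). Kif11, the motor that pushes the spindle poles apart, rose by 2.72 ± 0.40 in allogeneic and 3.20 ± 0.40 in syngeneic libraries, and Kif15, which backs it up, by 2.39 ± 0.37 in allogeneic and 2.83 ± 0.38 in syngeneic libraries. The microtubule depolymerase Kif2c rose by 2.23 ± 0.40 in allogeneic and 1.94 ± 0.39 in syngeneic libraries. The chromokinesin Kif4 rose by 3.28 ± 0.76 in allogeneic and 3.39 ± 0.77 in syngeneic libraries, and without control 2 by 4.40 in allogeneic and 4.53 in syngeneic libraries.

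Spindle assembly genes rose too, with Spag5 the least certain. Nusap1, which bundles spindle microtubules near chromatin, had 36.9, 27.9, 27.00 and 35.4 CPM in allogeneic libraries, 33.9, 38.6, 32.4 and 51.2 CPM in syngeneic libraries and 4.01, 1.86, 4.78 and 4.47 CPM in control libraries. Its rise was 3.07 ± 0.25 in allogeneic and 3.36 ± 0.26 in syngeneic libraries (edgeR adjusted p = 7.02e-09 in allogeneic and 3.95e-09 in syngeneic libraries). Hmmr, a microtubule-binding protein of the spindle poles, had 36.02, 13.03, 18.2 and 18.2 CPM in allogeneic libraries, 35.2, 27.7, 23.1 and 33.6 CPM in syngeneic libraries and 1.78, 2.44, 3.08 and 2.04 CPM in control libraries. Allogeneic 1 was as high as the highest syngeneic library and the other 3 allogeneic libraries were lower, and the rise was 3.19 ± 0.30 in allogeneic and 3.67 ± 0.30 in syngeneic libraries. Tpx2, which activates Aurora A on spindle microtubules, rose by 3.80 ± 0.40 in allogeneic and 4.24 ± 0.41 in syngeneic libraries. Spag5, known as astrin, overlapped control in both groups and was called higher at 1.65 ± 0.61 in allogeneic (edgeR adjusted p = 0.0279) and 1.70 ± 0.61 in syngeneic libraries (0.0264). The first call was lost without control 1 (0.0734), control 4 (0.0751), allogeneic 1 (0.103) or allogeneic 2 (0.0530) and with library totals (0.0830), and the second without control 1 (0.0704), control 4 (0.0704) or syngeneic 3 (0.131), while without control 2 the log2 fold changes were 2.28 in allogeneic and 2.35 in syngeneic libraries.

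Of the 6 genes of the spindle midzone and cytokinesis, 6 rose in each group against control. Prc1, which bundles antiparallel microtubules of the midzone, had 56.9, 37.2, 46.6 and 38.3 CPM in allogeneic libraries, 67.9, 62.9, 47.9 and 85.3 CPM in syngeneic libraries and 5.11, 2.60, 5.06 and 5.20 CPM in control libraries. Its rise was 3.31 ± 0.23 in allogeneic and 3.87 ± 0.23 in syngeneic libraries (edgeR adjusted p = 6.34e-10 in allogeneic and 2.23e-10 in syngeneic libraries). Anln, anillin, the scaffold of the contractile ring, had 15.6, 12.4, 11.4 and 10.4 CPM in allogeneic libraries, 17.4, 16.03, 15.8 and 21.00 CPM in syngeneic libraries and 2.08, 2.28, 2.23 and 1.42 CPM in control libraries. No allogeneic value reached a syngeneic value, and the rise against control was 2.63 ± 0.24 in allogeneic and 3.13 ± 0.25 in syngeneic libraries. Both subunits of centralspindlin rose, Kif23 by 2.34 ± 0.39 in allogeneic and 2.71 ± 0.39 in syngeneic libraries and Racgap1 by 2.22 ± 0.27 in allogeneic and 2.77 ± 0.28 in syngeneic libraries, as did the midzone kinesin Kif20a by 1.91 ± 0.26 in allogeneic and 2.39 ± 0.26 in syngeneic libraries. Ect2, the exchange factor that switches on RhoA for furrowing, rose by 2.06 ± 0.80 in allogeneic (edgeR adjusted p = 0.0413) and 2.67 ± 0.81 in syngeneic libraries (0.0141). The allogeneic call for Ect2 was lost without control 1 or 3, syngeneic 3 or 4, or any 1 of the 4 allogeneic libraries except allogeneic 2 (adjusted p 0.0536 to 0.103). It was also lost with library totals (0.0729), the compared groups alone (0.0504), the GC and length offset (0.0738), the replicate block (0.0862), block and offset together (0.134) and without the filter (0.0949), and the syngeneic call with block and offset together (0.0698). Without control 2 its log2 fold changes were 2.90 in allogeneic and 3.52 in syngeneic libraries.

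Chromosome proteins included the genes with the highest level per kilobase of transcript, Top2a in the transplanted groups and Smc2 in control. Top2a, the topoisomerase that untangles sister chromatids, had 173, 122, 133 and 98.1 CPM in allogeneic libraries, 173, 176, 171 and 148 CPM in syngeneic libraries and 10.3, 6.90, 8.21 and 7.27 CPM in control libraries. It made up 12.7% of the mitotic sum in allogeneic, 13.9% in syngeneic and 5.59% in control libraries. Its rise of 4.01 ± 0.17 in allogeneic (16.1-fold) and 4.36 ± 0.17 in syngeneic libraries (20.5-fold) had the smallest p of the 41 (edgeR adjusted p = 4.42e-13 in allogeneic and 1.38e-12 in syngeneic libraries). Mki67, Ki-67, which coats mitotic chromosomes and is the standard proliferation marker, had 66.6, 51.8, 82.4 and 59.2 CPM in allogeneic libraries, 71.8, 87.4, 80.6 and 84.4 CPM in syngeneic libraries and 0.967, 5.84, 4.43 and 6.78 CPM in control libraries. Control 1 was the lowest, and the rise was 3.85 ± 0.40 in allogeneic and 4.17 ± 0.41 in syngeneic libraries (edgeR adjusted p = 2.47e-06 in allogeneic and 1.74e-06 in syngeneic libraries).

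Genes of condensin, the ring that compacts mitotic chromosomes, rose by unequal amounts. Smc2, an ATPase core of the condensin rings, had 99.7, 75.2, 91.6 and 63.1 CPM in allogeneic libraries, 80.5, 85.4, 75.1 and 81.98 CPM in syngeneic libraries and 16.04, 19.1, 19.5 and 16.3 CPM in control libraries. Smc2 made up 12.2% of the control sum and rose by 2.22 ± 0.14 in allogeneic and 2.19 ± 0.14 in syngeneic libraries (edgeR adjusted p = 1.37e-10 in allogeneic and 3.80e-10 in syngeneic libraries). Its partner Smc4 rose by 1.90 ± 0.18 in allogeneic and 1.95 ± 0.18 in syngeneic libraries, and Ncapg, a HEAT-repeat subunit of condensin I, by 3.07 ± 0.34 in allogeneic and 3.33 ± 0.34 in syngeneic libraries. Ncapd2, the other HEAT-repeat subunit of condensin I, had 10.8, 11.6, 11.8 and 22.9 CPM in allogeneic libraries, 12.2, 13.7, 19.5 and 20.6 CPM in syngeneic libraries and 5.90, 9.88, 11.1 and 7.42 CPM in control libraries. It had the smallest syngeneic rise of the 41, 0.94 ± 0.28 (edgeR adjusted p = 0.00919), and a rise of 0.74 ± 0.28 in allogeneic libraries (0.0332) that was lost without control 1 (0.102), control 4 (0.0833) or allogeneic 4 (0.202), with library totals in place of TMM factors (0.287), and with limma-voom (0.0567).

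**Figure D3:**
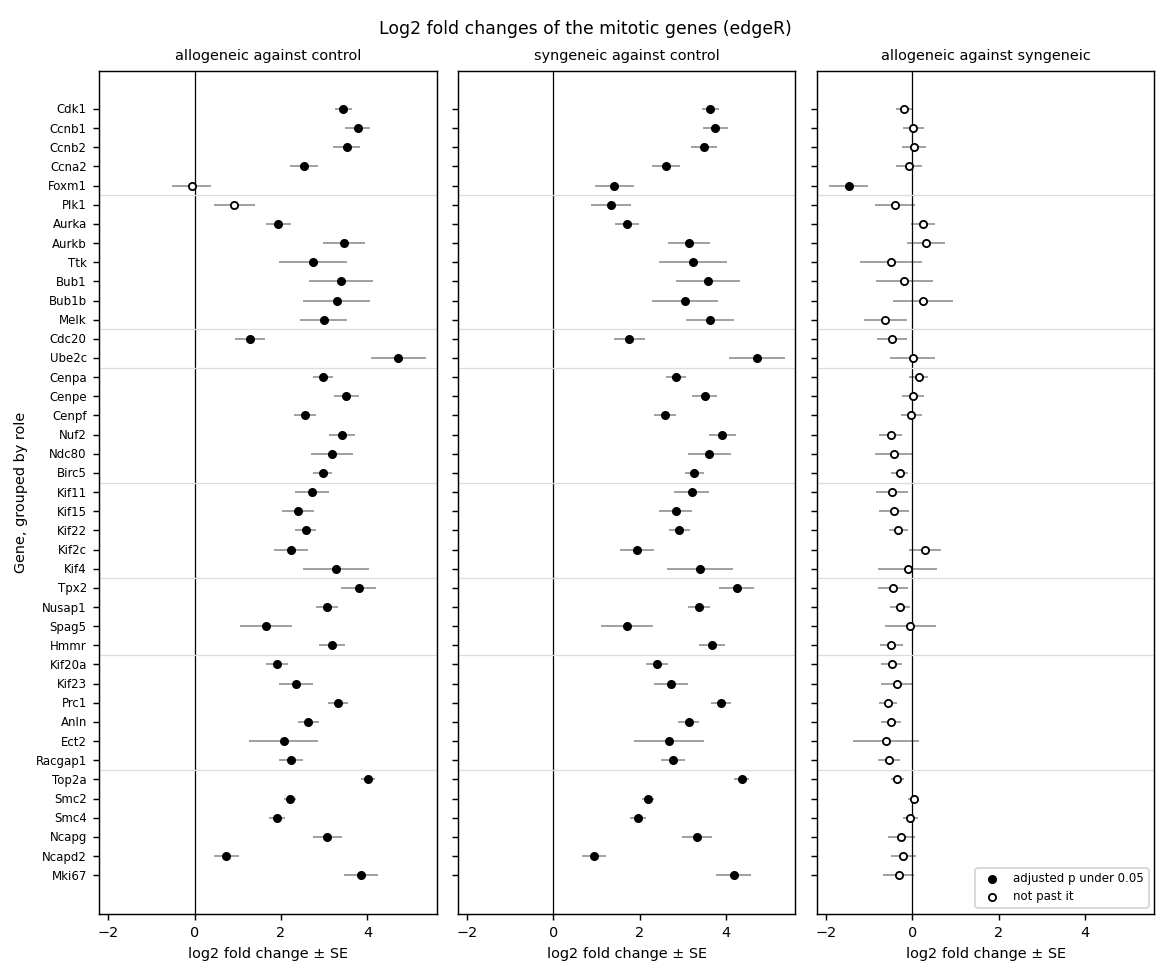
Log2 fold change ± SE of each of the 41 genes from edgeR, for allogeneic against control, syngeneic against control and allogeneic against syngeneic libraries, with filled points at an adjusted p under 0.05. In both comparisons with control nearly all points lie right of 0, with medians of 2.96 (allogeneic) and 3.15 (syngeneic), and in the third panel 1 point, Foxm1 at -1.47, is filled.

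The comparison of allogeneic with syngeneic recipients holds irradiation and cell doses alike. The groups differ in GvHD and also in the donor, whose strain the labels do not name, and these cannot be told apart here. Foxm1 was the single call among the 41, with 0 genes called higher and 1 lower, where 10.1% of all tested genes were called higher and 6.38% lower. At an unadjusted p under 0.05 there were 5 (Foxm1, Prc1, Anln, Racgap1 and Top2a), all with negative fold changes. The share of all tested genes at that unadjusted threshold is not given here, so these 5 are not read as a leaning of the list. Even at the adjusted threshold that share was 10.1% higher and 6.38% lower. Log2 fold changes were negative in 31 genes and positive in 10, with a median of -0.30 beside -0.01 over all tested genes and a median SE of 0.30. All 4 allogeneic libraries lay below the syngeneic ones in 2 genes, Foxm1 and Anln (8.1% of all tested genes did so), and above them in 1, Kif2c (12.6%). The summed level of the 41 was 0.858 times the syngeneic level, and the ranges of 943 to 1149 CPM in allogeneic and 1092 to 1327 CPM in syngeneic libraries overlapped. With library totals in place of TMM factors, all genes shifted by a median of -0.22 and the median of the 41 was -0.50. Then 5 of the 41 were called lower, beside 2108 of 12695 tested genes. Of all called genes 28.6% were then higher, against 61.4% with TMM.

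The largest separation by role was in the midzone and cytokinesis group. These 6 genes summed to 128, 98.6, 113 and 106 CPM in allogeneic and 167, 147, 133 and 193 CPM in syngeneic libraries, a ratio of 0.696 with no overlap. Prc1 was the largest part, with means of 44.7 of 111 CPM in allogeneic and 66.0 of 160 CPM in syngeneic libraries. Taken singly, only Anln of the 6 genes had no overlap between the groups. Each of the 6 had a negative log2 fold change, from -0.61 (Ect2) to -0.37 (Kif23), and 0 of the 6 were called. Prc1 came nearest at -0.56 ± 0.21 (edgeR adjusted p = 0.0726), and was called lower without control 2 (0.0258), syngeneic 3 (0.0368) or allogeneic 1 (0.0394), and with library totals (0.0131), limma-voom (0.0224) or the compared groups alone (0.0280). In 16 of 22 alternatives Prc1 stayed uncalled. Ratios of the other 7 role sums lay between 0.771 (spindle assembly) and 0.952 (Cdc20 and Ube2c). Top2a was at -0.35 ± 0.14 (adjusted p = 0.119) and was called lower without allogeneic 1 (-0.51, 0.0154), with library totals (0.00918), with limma-voom (0.0340) and with the replicate block (0.0282). It stayed uncalled in 18 of 22 alternatives. Hmmr was at -0.49 ± 0.27 with all libraries, and was called lower without allogeneic 1 (-0.86, 0.0176) but stayed uncalled in 21 of 22 alternatives. The cyclin B genes had differences near 0, with 0.02 ± 0.25 for Ccnb1 and 0.03 ± 0.27 for Ccnb2, and Cdk1 stood at -0.19 ± 0.18. None of these 3 was called, which does not show that the levels were equal.

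Within groups the genes varied unevenly. The median coefficient of variation of the 41 was 0.237 in allogeneic, 0.186 in syngeneic and 0.452 in control libraries, beside 0.207 in allogeneic, 0.189 in syngeneic and 0.181 in control libraries over all tested genes. Their median level was 15.8 CPM in allogeneic, 21.2 CPM in syngeneic and 2.44 CPM in control libraries. The order of the 41 genes by level was much alike in allogeneic and syngeneic libraries (Spearman rho 0.948 across 41 genes, which share their libraries). Per kilobase of the longest transcript, Top2a led in the transplanted groups, with 25.2 CPM per kb in allogeneic, 32.03 in syngeneic and 1.56 in control libraries. Ube2c had 20.7 CPM per kb in allogeneic, 20.6 in syngeneic and 0.798 in control libraries. Smc2 led in control, with 15.3 CPM per kb in allogeneic, 14.9 in syngeneic and 3.28 in control libraries. Foxm1 was lowest in allogeneic libraries at 0.462 CPM per kb, and Spag5 lowest in syngeneic libraries at 1.09 CPM per kb.

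Base composition moved with the folds and was read beside them. The 41 genes had a median GC content of 46.3% against 49.6% for all tested genes, and over all tested genes fold changes against control fell with GC content (Spearman rho -0.277 in allogeneic and -0.295 in syngeneic libraries). Among the 41 the same correlation was -0.18 in allogeneic and -0.326 in syngeneic libraries. The 10 genes at 50% GC or more had median log2 fold changes of 1.80 in allogeneic and 1.73 in syngeneic libraries, and the 31 below it 2.99 in allogeneic and 3.33 in syngeneic libraries. With an offset that corrects for GC content and length of the transcript, the first set had 1.87 in allogeneic and 1.95 in syngeneic libraries, and the second 2.81 in allogeneic and 3.03 in syngeneic libraries. Under that offset 39 of the 41 genes were called higher in allogeneic and 41 in syngeneic libraries, beside 3204 and 2909 of 12614 tested genes. Plk1 was then called in allogeneic against control libraries (1.28, adjusted p = 0.0282), and Ect2 was not.

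**Figure D4:**
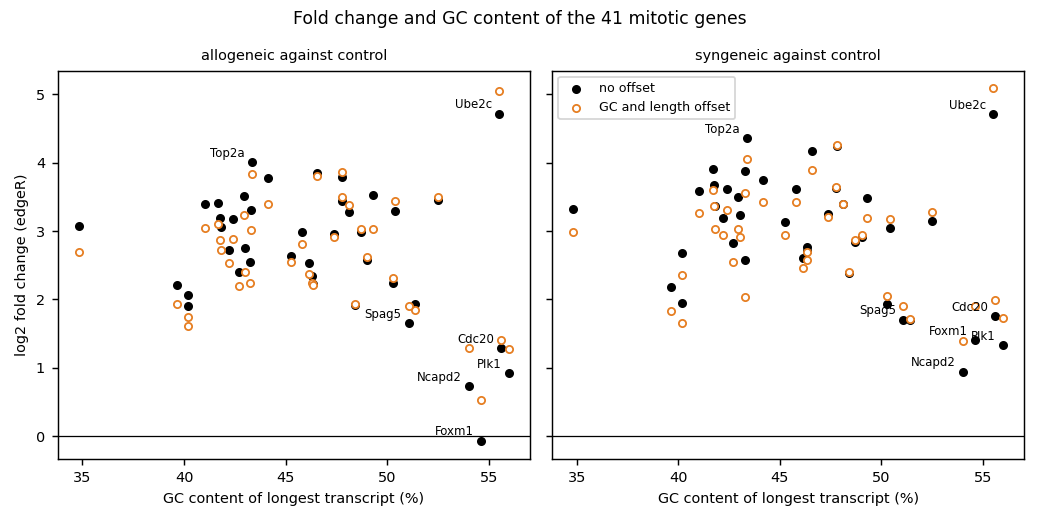
Log2 fold change of each of the 41 genes against control (y axis) by GC content of its longest transcript (x axis, percent), for allogeneic and syngeneic libraries, without (filled) and with (open) an offset for GC content and length. Genes over 50% GC lie lower on average, with Ube2c far above them, and with the offset the medians are 2.69 (allogeneic) and 2.95 (syngeneic), beside 2.96 (allogeneic) and 3.15 (syngeneic) without it.

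Other cell cycle genes, in 9 lists chosen by function, were read against the same shares of all tested genes. Against control these were 28.2% called higher and 29.1% lower in allogeneic libraries, and 26.4% higher and 25.6% lower in syngeneic libraries. Of 33 other mitotic genes, 27 rose and 0 fell in allogeneic libraries (median 2.47) and 29 rose and 0 fell in syngeneic libraries (median 2.79) against control. Among them Pbk, a mitotic kinase, rose by 3.24 ± 0.22 in allogeneic and 4.06 ± 0.22 in syngeneic libraries, and Cks1b, a small subunit of CDK complexes, by 3.58 ± 0.18 in allogeneic and 2.91 ± 0.17 in syngeneic libraries. With the GC and length offset Pbk stood at 2.51 in allogeneic and 3.47 in syngeneic libraries, and Cks1b at 2.68 in allogeneic libraries. Of 27 other kinetochore and checkpoint genes, 18 rose and 3 fell in allogeneic and 18 rose and 2 fell in syngeneic libraries (medians 1.46 in allogeneic and 1.62 in syngeneic). Cdca8, borealin of the passenger complex, rose by 3.49 ± 0.22 in allogeneic and 3.19 ± 0.22 in syngeneic libraries, and the checkpoint gene Mad2l1 by 1.97 ± 0.19 in allogeneic and 2.35 ± 0.19 in syngeneic libraries. All 26 DNA replication genes rose in syngeneic libraries (median 1.72) and 24 in allogeneic libraries (median 1.53), with Rrm2, a subunit of the enzyme that makes deoxynucleotides, at 3.96 ± 0.21 in allogeneic and 3.97 ± 0.21 in syngeneic libraries.

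In allogeneic libraries the other machinery lists held calls in both directions, as did all tested genes (28.2% higher and 29.1% lower). The allogeneic counts of the anaphase-promoting complex and DREAM lists lay near these shares, so their mix is not read as a trait of the lists. Of 16 genes of the anaphase-promoting complex, 4 rose and 4 fell in allogeneic libraries and 5 rose and 2 fell in syngeneic libraries (medians 0.24 in allogeneic and 0.16 in syngeneic). Among 4 other condensin subunits, Ncapg2 of condensin II rose by 2.30 ± 0.35 in allogeneic and 2.69 ± 0.36 in syngeneic libraries, whereas Ncaph of condensin I fell (-1.21 ± 0.14 in allogeneic and -0.57 ± 0.14 in syngeneic libraries). Ncaph2 of condensin II was called lower too (-0.33 ± 0.09 in allogeneic and -0.36 ± 0.09 in syngeneic libraries), but with the GC and length offset it was at 0.20 in allogeneic and 0.13 in syngeneic libraries and not called. Of 13 cohesin and separase genes, 8 rose and 1 fell in allogeneic and 10 rose and 0 fell in syngeneic libraries, led by the separase inhibitor Pttg1 (3.01 ± 0.21 in allogeneic libraries, 2.41 with the offset, and 2.504 ± 0.20 in syngeneic libraries). The 14 DREAM, MuvB and NF-Y genes held 4 that rose and 4 that fell in allogeneic and 6 that rose and 2 that fell in syngeneic libraries. The median of this list was 0.18 in allogeneic libraries with TMM and -0.19 with library totals.

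Several inhibitors of the cycle were higher too. Of 8 genes for CDK inhibitors and retinoblastoma-type brakes, 5 rose and 1 fell in allogeneic and 4 rose and 0 fell in syngeneic libraries. Cdkn1a, p21, an inhibitor of cyclin-dependent kinases and a p53 target, averaged 297 ± 5.29 CPM in allogeneic, 287 ± 17.5 CPM in syngeneic and 33.3 ± 4.42 CPM in control libraries (SD, n = 4 each). Its rise was 3.16 ± 0.09 in allogeneic and 3.11 ± 0.09 in syngeneic libraries (edgeR adjusted p = 1.35e-14 in allogeneic and 1.35e-13 in syngeneic libraries). Of 11 G1 cyclin and kinase genes, 6 rose and 3 fell in allogeneic and 5 rose and 0 fell in syngeneic libraries. Ccnd2, cyclin D2, which moves cells out of rest, averaged 283 ± 24.8 CPM in allogeneic, 154 ± 12.02 CPM in syngeneic and 11.8 ± 3.45 CPM in control libraries.

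In allogeneic against syngeneic libraries the counts are read against 10.1% of all tested genes called higher and 6.38% called lower. Ccnd2 was higher by 0.87 ± 0.14 (edgeR adjusted p = 1.79e-04). Pbk was called lower at -0.82 ± 0.19 (0.00581). Of the 26 DNA replication genes 5 were called lower, led by the helicase subunits Mcm4 (-1.27 ± 0.19), Mcm7 (-0.60 ± 0.14) and Mcm5 (-0.71 ± 0.18), and 0 were called higher. Of the 13 cohesin and separase genes 3 were called lower, the cohesin subunits Stag1 (-0.45 ± 0.12), Rad21 (-0.45 ± 0.13) and Smc3 (-0.40 ± 0.12), and with the GC and length offset Stag1 (adjusted p = 0.0645) and Smc3 (0.104) were not called. Ncaph of condensin I was called lower as well (-0.64 ± 0.14, edgeR adjusted p = 0.00365). Cks1b was called higher at 0.67 ± 0.16 (0.00555), a call lost with library totals (0.0513) and with the GC and length offset (0.311). Of the kinetochore and checkpoint list 0 of 27 were called, and of the CDK inhibitors 0 of 8.

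**Figure D5:**
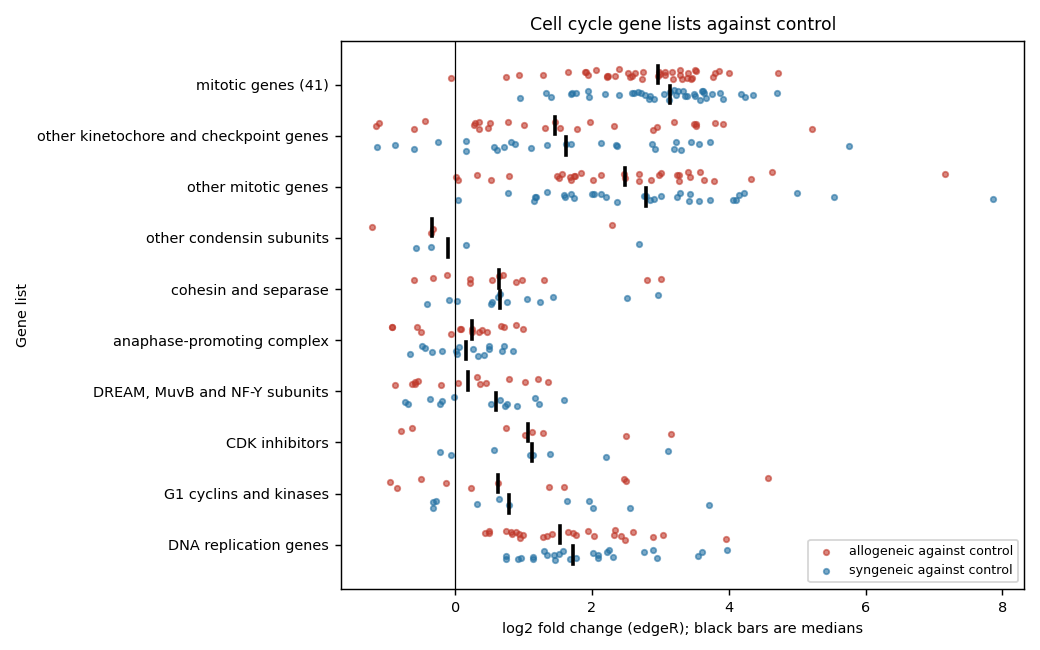
Log2 fold changes from edgeR of the 41 mitotic genes and of 9 other cell cycle lists, for allogeneic against control (red, upper row of each pair) and syngeneic against control (blue, lower row), with 1 point per tested gene and black bars for medians. The medians are 2.96 (allogeneic) and 3.15 (syngeneic) for the 41 genes, and -0.34 (allogeneic) and -0.10 (syngeneic) for the other condensin subunits.

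Transcripts of other cell types that the sort could hold were read beside the mitotic rise. The 8 T cell markers in the table summed to 1.06 to 3.31 CPM in allogeneic, 0.278 to 4.24 CPM in syngeneic and 1.39 to 2.53 CPM in control libraries. Lck was the largest part of this sum, with means of 0.996 CPM in allogeneic, 1.06 CPM in syngeneic and 1.58 CPM in control libraries. Cd2, at 0.334 CPM in allogeneic, 0.348 CPM in syngeneic and 0 in control libraries, was called higher in both groups against control. The other T cell markers were too low to be tested. In allogeneic, syngeneic and control libraries in turn, Cd3e had 12, 0 and 0 counts, Cd3g 26, 0 and 0, and Cd3d 20, 18 and 0. Cd8b1 had 21, 0 and 1, Cd8a 7, 0 and 18, and Cd4 1, 0 and 1. The 5 B and plasma cell markers summed to at most 1.18 CPM in any library. The 4 NK cell markers summed to 0.854 to 1.77 CPM in allogeneic libraries, at most 0.0446 CPM in syngeneic libraries and 0 in control libraries. Klrb1c carried this sum and was called higher in allogeneic libraries against both other groups, while Ncr1, Gzma and Prf1 had 0 counts in all 12 libraries. Mpo, the defining enzyme of granulocyte precursors, had 0 counts in all 12 libraries, and the summed precursor markers were 0 to 1.12 CPM in allogeneic, 0 to 4.95 CPM in syngeneic and 0.0531 to 20.0 CPM in control libraries. The other precursor markers went different ways. Elane, Prtn3 and Ctsg had 121, 25 and 11 counts in syngeneic libraries and 0 in allogeneic and control libraries. Ngp, Camp and Ltf had most of their counts in control libraries (1207, 224 and 115). The syngeneic sum was 4.95 CPM in syngeneic 4 and at most 0.366 CPM in the other syngeneic libraries. The 6 erythroid markers summed to 22.6 to 30.1 CPM in allogeneic, 20.1 to 29.1 CPM in syngeneic and 4.29 to 23.04 CPM in control libraries. The haemoglobin genes Hba-a1 and Hbb-b1 were at 0 counts, and Tfrc, the transferrin receptor, was called higher in both groups against control (20.2 CPM in allogeneic, 21.5 CPM in syngeneic and 5.597 CPM in control libraries). The 5 blood progenitor markers summed to 489 to 570.1 CPM in allogeneic, 395 to 521 CPM in syngeneic and 527 to 599 CPM in control libraries, nearly all of it Cd34. Of the 3 that were tested, 0 were called higher against control in either group. Flt3 was called lower in both (2.96 CPM in allogeneic, 1.15 CPM in syngeneic and 15.4 CPM in control libraries), and Cd34 was called lower in syngeneic libraries. The progenitor gene Kit, which was not tested, had 67 counts in allogeneic, 3 in syngeneic and 0 in control libraries. The summed monocyte markers did move with the groups, although not every gene did. The 6 genes summed to 288 to 458 CPM in allogeneic, 38.5 to 73.8 CPM in syngeneic and 18.5 to 19.99 CPM in control libraries. Against control, 4 of 6 rose and 1 fell in allogeneic libraries, and 3 of 6 rose and 0 fell in syngeneic libraries. The gene that fell was Ccr2, with means of 3.997 CPM in allogeneic, 8.01 CPM in syngeneic and 9.49 CPM in control libraries. Most of the allogeneic sum came from Ms4a4c (mean 228.9 CPM) and Plac8 (mean 77.9 CPM). Choroid plexus markers (Ttr, Folr1, Kcnj13 and Kl) summed to 339 to 601 CPM in allogeneic, 1090 to 1924 CPM in syngeneic and 12.9 to 96.7 CPM in control libraries, and 4 of 4 rose in each group against control. The part of RNA from any of these other cell types in the mitotic result was not tested.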

How the data were processed

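RNA-seq read counts per gene symbol were analysed for 12 libraries of sorted mouse microglia. The authors deposited raw counts for 24328 symbols. Trimmomatic 0.36, STAR 2.5.2b and the build mm9 are named in the submitters' processing notes. The counting tool, annotation and strand setting were not stated, so overlapping or near-identical genes may share reads.

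Comparisons came from edgeR 4.0.16 in R 4.3.3. TMM factors scaled the libraries, filterByExpr kept genes at a minimum count of 10, and 1 robust quasi-likelihood fit held all 12 libraries, adjusted by Benjamini-Hochberg over 12695 genes. The 41 genes, the companion lists and the marker lists were chosen with earlier results of these data known, so lists are described by counts and medians without a test. The result for 1 marker gene is not reported here. Values in every library are given for the 14 called genes with the smallest p, the 4 genes with the highest mean CPM, and, chosen after their values were seen, Foxm1, Plk1, Ube2c and Ncapd2. Up to 3 genes per companion list and comparison were named, by smallest p. Promoters came from RefSeq (GRCm38.p6), and transcript length and GC content matched 23298 symbols directly and 668 by synonym. The GC and length offset used loess with span 0.3. Counting floors (3 counts) cover counting error only. Other scalings and filters, DESeq2 1.42.0, limma 3.58.1 voom, a replicate block and each library left out were alternatives. The method was tested on simulated data. Of simulated log2 fold changes of 1 in size, 54.7% were called in allogeneic against syngeneic libraries. Against control it was 57.1% in allogeneic and 59.2% in syngeneic libraries. False calls made up 8.15% of the calls in allogeneic against syngeneic libraries, and 2.22% (allogeneic) and 2.84% (syngeneic) against control.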

Additional observations from a re-analysis of the deposited data

Results flagged for a closer look

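Each of the 41 genes and their sum was looked at in each group of 4 libraries (126 groups, of which chance flags about 1 in 20), and in 8 a library stood far from the other 3. Foxm1 in syngeneic 1 was 9.27 CPM where the other 3 syngeneic libraries had 4.55 to 5.31 CPM, and Bub1b in control 2 was 4.59 CPM where the other 3 control libraries had 0.0744 to 0.802 CPM. Prc1 was low in control 2 at 2.60 CPM, against 5.06 to 5.20 CPM in the others. Top2a was low in syngeneic 4 at 148 CPM, against 171 to 176 CPM. High values were those of Nuf2 in syngeneic 2 (33.3 CPM, others 22.0 to 23.8), Kif11 in allogeneic 4 (20.2 CPM, others 7.64 to 9.03), Kif2c in allogeneic 3 (40.9 CPM, others 30.7 to 30.97) and Ncapd2 in allogeneic 4 (22.9 CPM, others 10.8 to 11.8). The libraries that stood apart differ from gene to gene, with control 2 and allogeneic 4 doing so in 2 genes each. Without the library that stood apart, the allogeneic against control call for Ncapd2 and both calls for Foxm1 were lost, and Prc1 was called lower in allogeneic against syngeneic libraries.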

How the results depend on the processing

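Against control the direction held in every alternative tried: 36 to 39 genes were called higher in allogeneic and 39 to 41 in syngeneic libraries, with 0 called lower. Of all tested genes (11395 to 18018 by setting), 2453 to 3940 were called higher in allogeneic and 2723 to 3692 in syngeneic libraries. The allogeneic median of 2.96 was 2.60 with library totals, 2.69 with the GC and length offset, 2.76 with the replicate block and that offset, and 2.75 to 2.99 with 1 library left out. The syngeneic median of 3.15 was 3.39 with limma-voom, 3.35 with the replicate block and 2.95 with the offset. By library totals, the log2 ratio of the summed levels was 2.45 in allogeneic against control (2.83 with TMM factors), 2.88 in syngeneic against control (3.05) and -0.42 in allogeneic against syngeneic libraries (-0.22). The median of all genes was then -0.44, -0.20 and -0.22 in these 3 comparisons. Of all called genes, 31.8% were higher in allogeneic against control (49.2% with TMM factors) and 40.7% in syngeneic against control (50.8%).

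In allogeneic against syngeneic libraries the count called lower was 1, but 5 with library totals, 0 without the filter, 3 with limma-voom, 2 with the compared groups alone, 2 with the replicate block and 0 to 4 with 1 library left out. The median of -0.30 was -0.50 with library totals. Uncalled genes near 0 changed sign. Smc2 was -0.17 with library totals and -0.076 to 0.14 with 1 library left out. Ccnb1 was -0.18 with library totals, -0.022 with the offset, -0.015 with the replicate block and offset, and -0.0497 to 0.11 with 1 library left out. Cenpa was -0.066 with library totals. Cenpe was -0.19 with library totals, -0.029 with limma-voom, -0.00349 with the compared groups alone, -0.021 with the replicate block and -0.18 to 0.10 with 1 library left out. Ccnb2 was -0.17 with library totals, -0.059 with limma-voom, -0.049 with the replicate block, -0.17 with the offset, -0.25 with the replicate block and offset, and -0.25 to 0.19 with 1 library left out. Foxm1 in allogeneic against control libraries was 0.53 with the offset, 0.42 with the replicate block and offset, and -0.38 to 0.16 with 1 library left out. The causes were not tested. Same-numbered libraries did not deviate together (correlations -0.0202 to 0.0195, 0 of 12 pairs over 0.1), so the replicate block pairs nothing known. Counting depth limits values near 0, such as Bub1 in control 2 and Kif4 in control 3, where 3 counts would be 0.0797 and 0.0588 CPM.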
